A study of Mus musculus with 1536 samples.

Results

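The 9 genes described here control clotting and the breakdown of clots, and their levels were read in lymphatic endothelial cells (LECs) of the adult nasopharynx. They are *Plat*, *Plaur*, *Serpine2*, *F3*, *Tfpi*, *Thbd*, *Procr*, *F8* and *Vwf*. Members were chosen by symbol from the 23168 genes of the adult matrix, and all 9 were in it. The cells came from the nasopharyngeal mucosa of C57BL/6 mice of both sexes, aged 10–12 weeks, with no treatment named. Tissue of 30 mice was pooled before CD31+ PDPN+ cells were sorted into wells for Smart-seq3, a plate-based method that reads full-length cDNA. Since neither mouse nor plate could be read from the cell names, the cells were 1 sample, values are given without p-values, and the spread over cells describes these cells alone.

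A clot forms when tissue factor meets factor VII and starts a cascade that ends in thrombin and fibrin, and it is dissolved by plasmin, which is cut from plasminogen by tissue-type or urokinase-type plasminogen activator. Endothelial cells hold the cascade back with tissue factor pathway inhibitor and with thrombomodulin and the endothelial protein C receptor, which together turn thrombin towards the activation of protein C. Lymph contains clotting factors but clots poorly in healthy vessels, and endothelial cells, lymphatic ones among them, are a known source of factor VIII.

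All 8 LEC markers checked were found, with *Prox1*, the transcription factor that specifies lymphatic identity, in 97.7% of the cells, *Flt4* in 99.8% and *Mmrn1* in 100% of them. The immune marker *Ptprc* was found in 0 cells, which at a limit of 3 counts allows a share of cells with a read of up to 0.356%. *Cd68*, another marker of the immune list, was found in 15.7% of the cells, and the fibroblast marker *Dcn* in 12.4%. The summed levels of the immune, platelet, fibroblast, epithelial, mural and Schwann cell lists had a median of 0, and that of the blood endothelial list a median of 7.96. Total reads per cell ran from 7433 to 3524358 with a median of 350746, so a gene at a low level was more easily missed in some cells than in others. Levels are therefore given as reads per 10000 reads of the same cell, and shares of cells are also given after thinning each cell to 20000 reads, with 51 shallower cells left out. The shares of cells with the 9 genes carry 95% Clopper–Pearson intervals, which cover counting error only.

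Of the 9 genes, 7 were found in a large share of the LECs and 2 were rare. *Thbd* was found in 88.95% of the cells (95% interval 86.6–90.99%), *Serpine2* in 79.2% (76.3–81.9%), *Plaur* in 78.98% (76.1–81.7%) and *Procr* in 71.6% (68.4–74.6%). *Plat* followed with 65.4% (62.1–68.7%), *Tfpi* with 62% (58.6–65.3%) and *F8* with 44.1% (40.7–47.5%). *Vwf* was found in 5.11% (3.72–6.82%) and *F3* in 0.713% (0.262–1.55%). At 20000 reads per cell the order was kept apart from *Plat*, which dropped below *Tfpi*: 75.6% of the cells had *Thbd*, 48.7% *Tfpi*, 39.9% *Plat* and 31.2% *F8*. The thinned cells held a median of 4 of the 9 genes, 7 cells held 0 of them and 1 cell held 8.

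**Figure D1:**
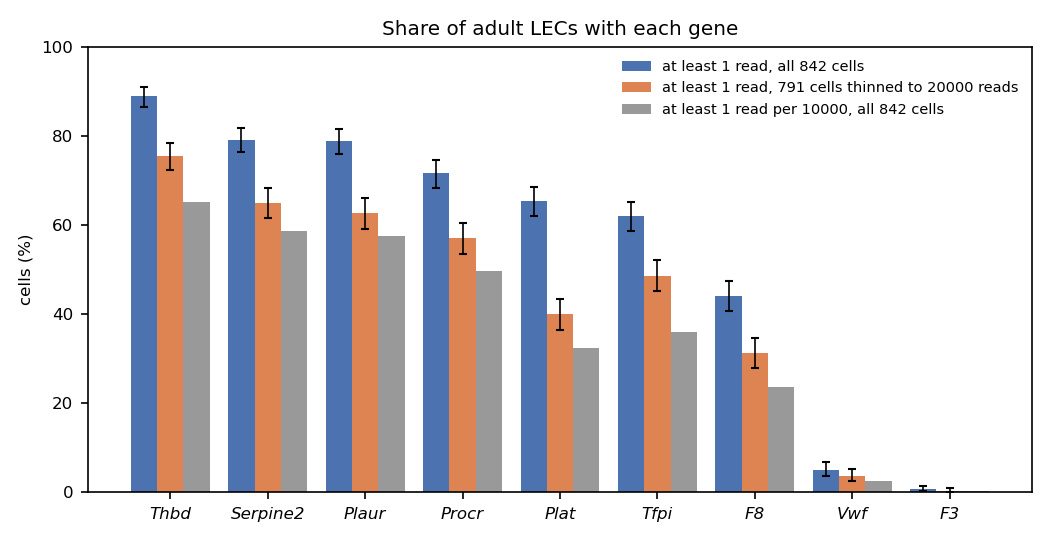
Share of adult LECs (y axis, %) with at least 1 read of each gene, in all cells and in cells thinned to 20000 reads, and share with at least 1 read per 10000 (grey, all cells). Error bars are 95% Clopper–Pearson intervals, and *Thbd* stands highest at 88.95% while *F3* stands lowest at 0.713%.

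To compare levels between genes, the mean reads per 10000 were divided by the length of each gene's exons in kilobases. *Thbd* (1.30), *Plaur* (1.24) and *Procr* (1.16) had the highest mean levels per kilobase, followed by *Plat* (0.581), *Serpine2* (0.504), *Tfpi* (0.197) and *F8* (0.0900), with *Vwf* (0.00612) and *F3* (0.00301) far below. Dividing by the longest transcript instead changed the order of the first 5 genes, with *Plaur* (1.62) first, *Procr* (1.46) next and *Thbd* (1.30) after it, and left the last 4 in place. For every gene the SD over cells was larger than its mean, with a ratio from 1.36 for *Serpine2* to 20.8 for *F3*, so single cells varied widely around these means. The order of the means was not tested.

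Among the 7 widely found genes, levels were most unevenly shared among cells for *Plat*. Its 85 highest cells, the top 10%, held 77.3% of the summed level, against 66.1% for *F8* and 42.5% to 46.4% for *Plaur*, *Serpine2*, *Tfpi*, *Thbd* and *Procr*. *Plat* reached at least 10 reads per 10000 in 70 cells, with a peak of 128.8, while its median over all cells was 0.0647. Among the cells in which it was found, 50.5% had less than 1 read per 10000. *Plat* was thus at a trace level in many cells and abundant in few.

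Plasminogen activation was represented by *Plat*, which encodes tissue-type plasminogen activator, *Plaur*, which encodes the receptor for urokinase, and *Serpine2*, which encodes protease nexin-1, an inhibitor of thrombin and plasminogen activators. *Plat* lies on chromosome 8 (GRCm38, 22757727 to 22782844, forward strand), *Plaur* on chromosome 7 (24462484 to 24475968, forward strand) and *Serpine2* on chromosome 1 (79794197 to 79861180, reverse strand). The mean level was 3.63 ± 10.6 reads per 10000 for *Plat*, 3.25 ± 4.64 for *Plaur* and 4.17 ± 5.69 for *Serpine2* (SD over all cells). *Plat* and *Serpine2* were met in the same thinned cell more often than the product of their shares, in 32.1% of cells against 25.96%, with a Pearson's r of 0.24 over the thinned cells. All correlations here describe cells of 1 pooled sample thinned to the same depth.

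In the tissue factor pathway the inhibitor was widely found and the initiator rarely. *F3*, the gene of tissue factor (chromosome 3, 121723537 to 121735048, forward strand), had at least 1 read in 6 cells. Their levels were 0.0405, 0.0691, 0.105, 0.371, 1.504 and 4.32 reads per 10000, and all 6 cells had *Prox1* reads. *Tfpi*, the gene of tissue factor pathway inhibitor (chromosome 2, 84432855 to 84476775, reverse strand), had a mean of 1.08 ± 1.67 reads per 10000 and at least 10 in 2 cells. Its share of cells with a read went with depth, from 47.9% in the shallowest of 4 equal sets of cells to 70.95% in the set next to the deepest.

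Both endothelial receptors of the protein C pathway were common. *Thbd*, the gene of thrombomodulin (chromosome 2, 148404466 to 148408188, reverse strand), had a mean of 4.84 ± 7.18 reads per 10000 and a median of 2.59. *Procr*, the gene of the endothelial protein C receptor (chromosome 2, 155751117 to 155755471, forward strand), had a mean of 2.36 ± 3.75 and a median of 0.952. Their natural log levels were related with r = 0.23 over the thinned cells, and 46.3% of these cells held both, against 43.1% for the product of their shares.

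Factor VIII was more widely found than its carrier. *F8*, the gene of coagulation factor VIII (chromosome X, 75172715 to 75382615, reverse strand), had a mean of 0.892 ± 2.13 reads per 10000, a median of 0 and a peak of 27.9. *Vwf*, the gene of von Willebrand factor (chromosome 6, 125546774 to 125686679, forward strand), was found in 43 cells where its median was 0.770 and its peak 10.1, and 21 of them passed 1 read per 10000. All 43 cells had *Prox1* reads. The summed level of 7 blood endothelial markers had a median of 11.1 in these cells and of 7.84 in cells without *Vwf*, while the median depth was 635754 against 335519 reads, and the part of either in the *Vwf* signal was not tested. Of these markers, *Emcn* (94.2% of all cells) and *Plvap* (77.8%) were common among the LECs as a whole. The platelet list had a median of 0 in both sets of cells.

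*F8* was found less often beside *Plat* and *Serpine2* than the product of their shares. *F8* and *Plat* were found together in 8.09% of thinned cells, where the product of their shares was 12.5%, and *F8* and *Serpine2* in 13.5%, where the product was 20.3%. The r over the thinned cells was −0.22 for *F8* with *Plat* and −0.31 for *F8* with *Serpine2*, and the lowest among the other pairs of the 9 genes was −0.13, for *F8* with *Thbd*.

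The 300 bases around the start of transcription (250 before and 50 after) were available for 6 of the 9 genes from RefSeq on GRCm38.p6, and for *Plat*, *Thbd* and *Vwf* they were not used here. Each was searched on both strands for TGANTCA, the core letters bound by Fos and Jun proteins, and for CCACCC, letters bound by Krüppel-like factors. The 3 promoters with TGANTCA are shown because *Fos* and *Jun* were abundant in these cells, with means of 88.3 and 19.99 reads per 10000, while *Jund* had a mean of 0.335. *Fos*, *Jun* and *Jund* were on a list of early response genes known to rise during cell dissociation, whose part in these levels was not tested. Capitals mark the matches, with GGGTGG as CCACCC read on the other strand, and each sequence is written 5′ to 3′ on the strand of its gene.
*Plaur*, chr7:24462233-24462532, forward strand: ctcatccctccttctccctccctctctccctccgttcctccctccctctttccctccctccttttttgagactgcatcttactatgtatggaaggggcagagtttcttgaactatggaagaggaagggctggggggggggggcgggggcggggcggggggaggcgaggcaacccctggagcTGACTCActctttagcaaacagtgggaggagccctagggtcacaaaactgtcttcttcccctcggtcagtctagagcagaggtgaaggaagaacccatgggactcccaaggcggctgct
*Procr*, chr2:155750967-155751266, forward strand: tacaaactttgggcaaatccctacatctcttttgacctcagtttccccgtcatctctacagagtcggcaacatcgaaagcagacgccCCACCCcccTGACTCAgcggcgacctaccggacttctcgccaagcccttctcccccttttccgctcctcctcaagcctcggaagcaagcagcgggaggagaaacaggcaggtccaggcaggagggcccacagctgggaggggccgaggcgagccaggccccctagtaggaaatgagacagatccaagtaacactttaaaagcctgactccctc
*F3*, chr3:121723287-121723586, forward strand: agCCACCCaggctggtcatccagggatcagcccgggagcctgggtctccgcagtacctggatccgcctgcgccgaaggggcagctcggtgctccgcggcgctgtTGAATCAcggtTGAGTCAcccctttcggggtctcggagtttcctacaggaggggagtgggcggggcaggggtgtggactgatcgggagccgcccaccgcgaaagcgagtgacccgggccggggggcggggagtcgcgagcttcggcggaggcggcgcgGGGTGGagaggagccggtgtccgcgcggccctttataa

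TGANTCA was present once for *Plaur*, once for *Procr* and 2 times for *F3*, and CCACCC once for *Procr* and 2 times for *F3*, and matches of one motif did not overlap those of the other. The promoters of *Tfpi*, *F8* and *Serpine2* had neither motif in this window. Among all 32851 promoters of the same length, 7.81% held TGANTCA and 31.5% held CCACCC. *F3*, with most matches, was the gene found in fewest cells, whereas *Plaur* and *Procr* were among the widely found ones. A match describes letters, not occupancy.

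The first comparison was between cells with a *Cldn11* value above 1, the gene of a tight junction protein used here as a valve marker, and all other cells. The value is the natural log of 1 plus reads per 10000. *Cldn11* cells made up 17.9% of all cells, and their median depth was 322571 reads against 360540 in the others. Valve-list genes, *Cldn11* included, had a median summed level of 26.8 in *Cldn11* cells and 19.4 in the others. *Cldn11* itself, which set the groups and so adds to this sum, had means of 5.36 and 0.137. Of the other genes on that list, *Gja1* (4.995 and 6.57), *Foxc2* (0.168 and 0.194) and *Itga9* (1.57 and 1.71) had lower means in *Cldn11* cells.

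*Plat* was the only one of the 9 genes past 2-fold in *Cldn11* cells. Its level ran from 0 to 80.8 with a median of 0.741 in *Cldn11* cells and from 0 to 128.8 with a median of 0.0427 in the others, so the groups overlapped throughout. The means were 7.87 ± 15.7 and 2.698 ± 8.88 reads per 10000 (SD over cells), a log2 ratio of 1.51 after adding 0.1 to both means. *Plat* was found in 76.2% of *Cldn11* cells (68.6–82.7%) and 63.1% of the others (59.4–66.7%). The contrast was wider among cells with much *Plat*: 19.9% of *Cldn11* cells and 5.79% of the others reached 10 reads per 10000, and 30 of the 70 such cells were *Cldn11* cells.

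The mean level of *Plat* also followed the amount of *Cldn11*. The *Plat* mean was 2.13 in the 62.7% of cells without *Cldn11* reads and 4.53 in the 19.4% with a value up to 1. It was 5.86 in the 13.7% between 1 and 2, and 14.3 in the 4.28% (36 cells) above 2. The medians of these sets were 0.0399, 0.0516, 0.417 and 4.66, so the first step was seen in the mean and hardly in the median. Just below the threshold, within 0.25 of it, 40 cells had a mean of 4.02, and just above it 47 cells had 4.56. The level thus changed little across the threshold itself and was highest in the few cells with most *Cldn11*.

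The other genes stayed near equal levels in this comparison. The log2 ratio was 0.35 for *Plaur*, 0.27 for *Procr*, 0.17 for *Serpine2*, 0.07 for *Tfpi*, 0.00 for *Thbd* and −0.09 for *F8*. Of the 7 genes found in at least 10% of cells, 1 was 2-fold higher and 0 were 2-fold lower, and their median log2 ratio was 0.17. Over all 9654 genes that passed this filter, 0.197% were 2-fold higher and 0.249% were 2-fold lower, with a median of −0.03 and 90% of the ratios between −0.49 and 0.39. *F3* and *Vwf* did not pass the filter. *Vwf* was found in 5.96% of *Cldn11* cells (2.76–11.01%) and 4.92% of the others (3.43–6.81%), and *F3* in 1 *Cldn11* cell and 5 others.

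Stress genes also had a higher median level in *Cldn11* cells. The summed level of 6 stress genes (*Gdf15*, *Cdkn1a*, *Hmox1*, *Ddit3*, *Trib3* and *Chac1*) had a median of 8.33 in *Cldn11* cells and 5.20 in the others, with ranges of 0 to 70.9 and 0 to 295.3. Among cells at or below the median of this sum, a choice made after seeing the data, the log2 ratio of *Plat* was 1.75. That of *Plaur* went from 0.35 in all cells to −0.17 in this set. The part of stress in these ratios was not tested. Fibroblast markers had a median of 0 in both groups, with 1 *Cldn11* cell at 132.98. Without cells that carried at least 2 blood endothelial, immune or platelet markers above a value of 1, the ratio of *Plat* was 1.45. Averaging natural log values instead of levels ended the 2-fold call for *Plat*, with a log2 difference of 0.83.

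**Figure D2:**
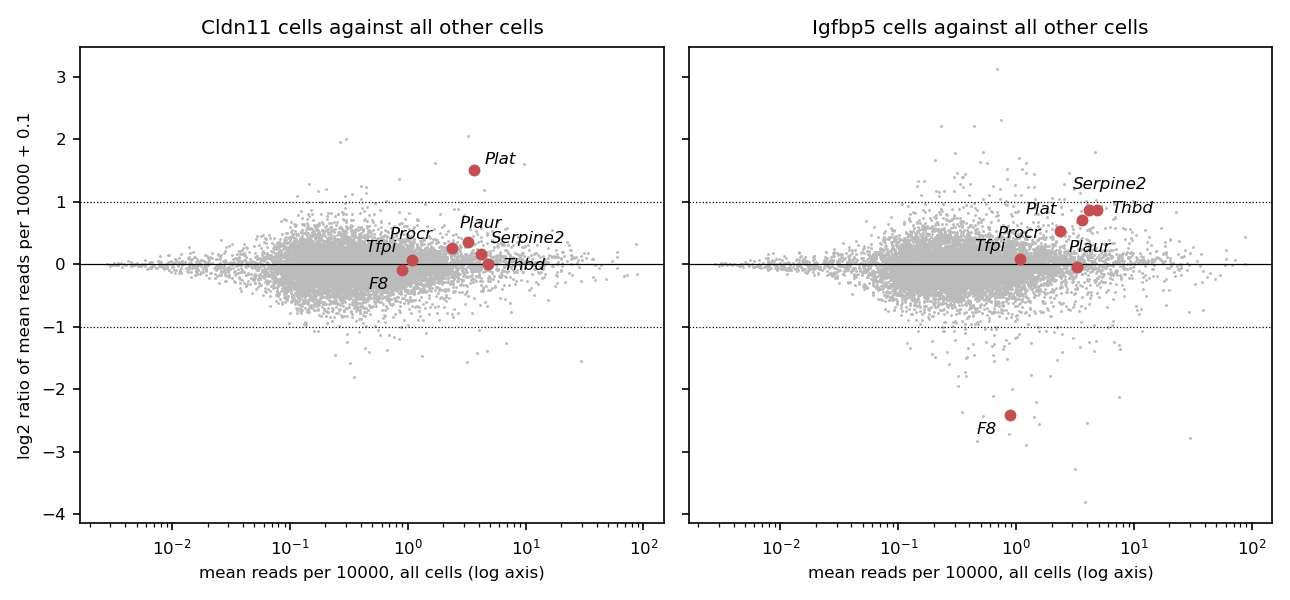
Log2 ratio of mean reads per 10000 plus 0.1 (y axis) against the mean over all cells (x axis, log scale) for genes found in at least 10% of cells (grey), with the 7 genes named in red. Dotted lines mark 2-fold. *Plat* lies at 1.51 in *Cldn11* cells, and *F8* at −2.41 in *Igfbp5* cells.

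The second comparison was between cells with an *Igfbp5* value above 2, a gene used here as a marker of collecting lymphatics, and all other cells. *Igfbp5* cells made up 26.8% of all cells, and their median depth was 344338 reads against 362251 in the others. By the choice of cells, *Igfbp5* had means of 29.97 and 0.708. The list of collecting markers, *Igfbp5* included, had a median summed level of 52.9 in *Igfbp5* cells and 13.4 in the others. *Igfbp5*, which set the groups, adds to this sum. The rest of the list also had higher means in *Igfbp5* cells: *Cd9* (12.3 and 8.22), *Clca3a1* (10.5 and 5.31), *Apoe* (7.98 and 6.72) and *Foxp2* (1.38 and 0.765). The capillary list had 6.44 and 15.5. Of the capillary markers, *Lyve1* (6.42 and 13.6), *Stab2* (0.347 and 4.22), *Ptx3* (0.0631 and 0.332) and *Ccl21a* (1.66 and 2.36) had lower means in *Igfbp5* cells. *Ptn* (2.15 and 0.157) and *Fndc1* (2.26 and 0.901) had higher means in them. *F8* was lower in *Igfbp5* cells, whereas *Serpine2*, *Thbd*, *Plat* and *Procr* had higher means that stayed within 2-fold.

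*F8* ran from 0 to 4.04 reads per 10000 in *Igfbp5* cells and from 0 to 27.9 in the others, and all 7 cells with at least 10 were among the others. Its mean was 0.138 ± 0.470 in *Igfbp5* cells and 1.17 ± 2.41 in the others (SD over cells), a log2 ratio of −2.41. It was found in 23.9% of *Igfbp5* cells (18.5–30%) and 51.5% of the others (47.4–55.5%). At 20000 reads per cell the ratio was −2.63. With a pseudocount of 1, which is above the *F8* mean of *Igfbp5* cells, the ratio was −0.93, and with averaged natural log values the log2 difference was −0.56, both short of 2-fold.

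*F8* fell in steps as *Igfbp5* rose. Its mean was 1.27 in the 62.4% of cells with an *Igfbp5* value up to 1, 0.573 in the 10.8% between 1 and 2, 0.213 in the 12.1% between 2 and 3, and 0.0761 in the 14.7% above 3. Within 0.25 of the threshold it was 0.310 in 22 cells below and 0.208 in 30 cells above. *Thbd* went the other way, with means of 3.72, 5.28, 5.97 and 8.33 in the same 4 sets of cells. *Serpine2* was already near its upper level between 1 and 2, with means of 3.06, 5.33, 6.40 and 6.19.

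**Figure D3:**
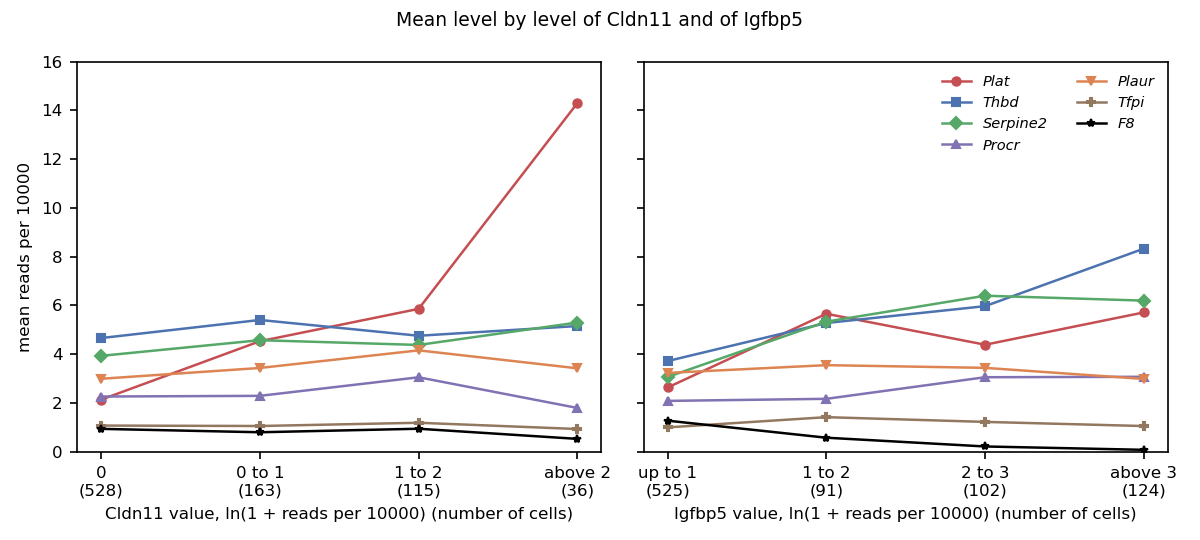
Mean reads per 10000 (y axis) of the 7 widely found genes in cells grouped by the value of *Cldn11* (left) or *Igfbp5* (right), with the number of cells in brackets. *Plat* rises to 14.3 in cells with *Cldn11* above 2, and *F8* falls from 1.27 to 0.0761 across the *Igfbp5* groups while *Thbd* rises from 3.72 to 8.33.

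Thrombomodulin and protease nexin-1 were the genes closest to 2-fold higher. *Thbd* had a median of 4.76 in *Igfbp5* cells and 1.602 in the others, with means of 7.26 ± 7.84 and 3.95 ± 6.72 and a log2 ratio of 0.86. *Serpine2* had medians of 4.78 and 0.858, means of 6.29 ± 6.02 and 3.399 ± 5.37, and a log2 ratio of 0.87. In both cases the range began at 0 in either group, and cells with at least 10 reads per 10000 lay in both groups. *Serpine2* was found in 92.9% of *Igfbp5* cells (88.8–95.9%) and 74.2% of the others (70.5–77.6%), and *Thbd* in 96.02% (92.6–98.2%) and 86.4% (83.4–88.98%). Of the cells with at least 10 reads of *Thbd* per 10000, 51 (43.97%) were *Igfbp5* cells, as were 50 (43.9%) of such cells of *Serpine2*.

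*Plat* had means of 5.11 and 3.08 in *Igfbp5* and other cells (log2 ratio 0.71), and *Procr* of 3.06 and 2.10 (0.53). *Tfpi* (0.08) and *Plaur* (−0.04) were close to equal. Of the 7 genes, 0 were 2-fold higher and 1 was 2-fold lower, with a median log2 ratio of 0.53. Among all 9654 genes, 0.59% were 2-fold higher and 0.818% were 2-fold lower, with a median of −0.03 and 90% of the ratios between −0.52 and 0.43. *Vwf* was found in 6.64% of *Igfbp5* cells (3.76–10.7%) and 4.55% of the others (3.04–6.50%), and *F3* in 1 and 5 cells. The early response genes that dissociation can raise had a median summed level of 217.7 in *Igfbp5* cells and 190.7 in the others, with means of 226.4 and 219.7. In *Cldn11* and other cells the medians were 201.4 and 194.4 and the means 221.1 and 221.6. The part of dissociation in the ratios was not tested.

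Both comparisons use the same cells, so they were also crossed. The 45 cells past both thresholds had a mean *Plat* level of 8.76 ± 17.1, those past that of *Cldn11* alone (12.6% of all cells) 7.49 ± 15.2, those past that of *Igfbp5* alone (21.5%) 4.21 ± 12.2, and those past neither (60.6%) 2.16 ± 7.30. *Plat* thus had a higher mean with *Cldn11* whether or not *Igfbp5* was present, and the value with *Igfbp5* alone lay between. For *F8* the means in the same order were 0.0741, 1.17, 0.154 and 1.17, so the cells with *Cldn11* alone stood level with those past neither threshold. For *Thbd* they were 7.60, 3.68, 7.18 and 4.002, so that *Thbd* went with *Igfbp5* alone or with both. *Serpine2* was highest with *Igfbp5* alone, with means of 4.72, 4.54, 6.67 and 3.16. *Serpine2* was found in all 45 cells past both thresholds (92.1–100%).

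**Figure D4:**
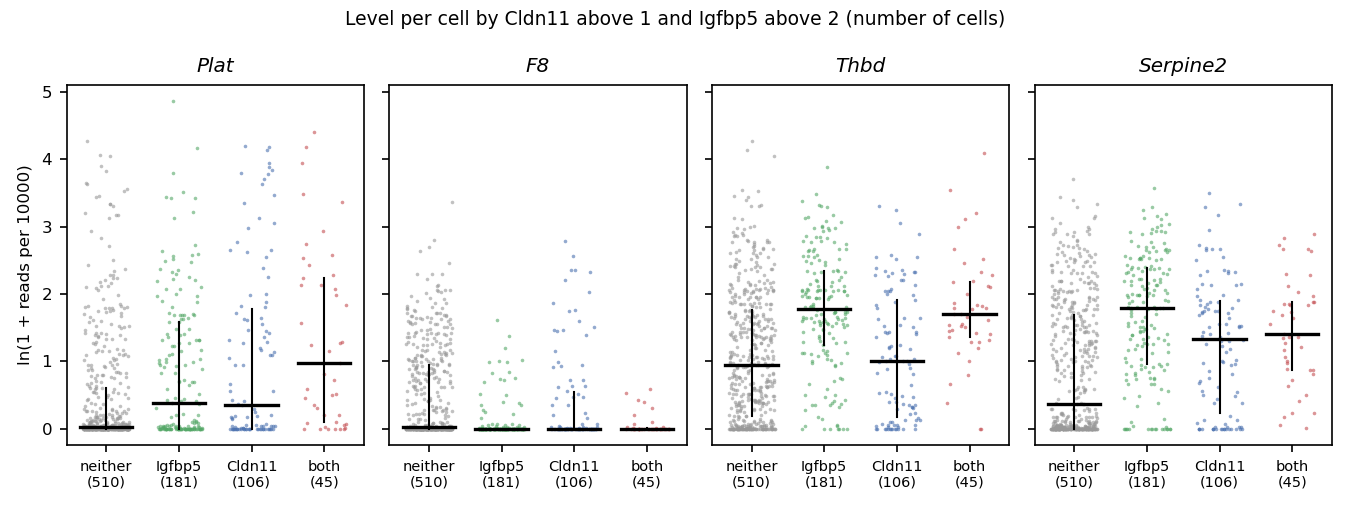
Natural log of 1 plus reads per 10000 (y axis) of *Plat*, *F8*, *Thbd* and *Serpine2* in every cell, by whether *Cldn11* was above 1 and *Igfbp5* above 2. Horizontal lines are medians and vertical lines span the quartiles. *F8* was found in 26.7% of cells past both thresholds and 52.9% past neither, and *Plat* in 86.7% and 60.4%.

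*Plat* had a lower mean in each group of cells set by a capillary marker (*Stab2*, *Fndc1* or *Lyve1*). *F8* and *Serpine2* differed from marker to marker. In cells with a *Stab2* value above 1 (31.2% of all), *F8* had a mean of 2.12 against 0.333 in the others, *Plat* 0.614 against 4.99 and *Serpine2* 1.35 against 5.45. In cells with *Fndc1* above 1 (16.9%), *Serpine2* had a mean of 7.29 against 3.54 while *F8* had 0.277 against 1.02. In cells with *Lyve1* above 2 (38.8%), *F8* had 1.28 against 0.643 and *Serpine2* 3.41 against 4.66. *Procr* had 0.963 against 3.24 in these cells, and *Vwf*, found in only 43 cells of the whole set, 0.00574 against 0.157. *F8* thus had a higher mean in cells with *Stab2*, the gene of a scavenger receptor known to bind von Willebrand factor with factor VIII, and a lower mean in cells with *Fndc1*.

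The genes most like each of the 7, by Pearson's r over the thinned cells, were looked up among all genes that passed the filter. *F8* was most like *Stab2* (0.44), *Gm525* (0.43) and *Igfbp4* (0.39), and *Serpine2* was most like *Clca3a1* (0.46), *Fstl1* (0.46) and *Vim* (0.45). *Plat* was most like *Slc41a1* (0.41), *Nts* (0.39), the gene of neurotensin, and *Nupr1* (0.35), a gene induced by cell stress. *Thbd* was most like *Cmah* (0.35), *Igfbp5* (0.34) and *Slco2a1* (0.32), the last the gene of a prostaglandin transporter. *Procr* was most like *Apoe* (0.33), *Tgm2* (0.33) and *Tspan7* (0.30). For *Plaur* the values were at most 0.26 (*Fgl2*, *Emp1* and *Tinagl1*), and for *Tfpi* at most 0.15 (*Raet1e*, *Sypl* and *Arsb*), too weak to describe a pattern. Ranking by Spearman's rho kept all 3 genes for *F8* and *Serpine2*, 2 of 3 for *Plat*, *Plaur*, *Thbd* and *Procr*, and 1 of 3 for *Tfpi*.

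Around these genes, 73 genes of clotting, fibrinolysis and their endothelial control were listed, the 9 included. In the matrix used here 58 of them were present, and 36 were found in at least 10% of cells. The 5 found in most cells were *Stab1* (99.9%), *Anxa2* (99.5%), *Anxa5* (99.2%), *S100a10* (98.8%) and *Pros1* (90.3%). *Anxa2* and *S100a10* encode the annexin A2 complex that binds plasminogen and its tissue-type activator at the cell surface, and *Pros1* encodes protein S, the cofactor of activated protein C. Plasminogen itself (*Plg*) was found in 3 cells.

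Leaving out the 9 genes, 29 listed genes passed the filter. In *Cldn11* cells their median log2 ratio was 0.11, beside −0.03 over all genes, and 2 were 2-fold lower, beside 0.249% of all 9654 genes. *Sdc4*, the gene of a heparan sulfate proteoglycan, was 2-fold higher with means of 0.846 in *Cldn11* cells and 0.142 in the others (log2 ratio 1.97). The lower genes were *Thbs1* (−1.04) and *Stab2* (−1.56).

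In *Igfbp5* cells 1 of the 29 genes was 2-fold higher and 4 were 2-fold lower, beside 0.59% and 0.818% of all 9654 genes, with a median log2 ratio of 0.16. *Sdc1*, another heparan sulfate proteoglycan gene, had means of 2.25 and 0.623 (log2 ratio 1.70). *Plau*, the gene of urokinase-type plasminogen activator, was lower with means of 0.209 and 0.803 (−1.55), and so differed in direction from *Plat*. *Stab2* (−3.27), *Thbs1* (−2.54) and *Selp* (−1.99), the gene of P-selectin, which is stored with von Willebrand factor in endothelial granules, were lower as well.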

How the data were processed

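Single LECs were sorted from pooled tissue into 1536 wells and measured by Smart-seq3. According to the methods, alignment was to mm10 with STAR and counting with featureCounts, and cells below 2000 genes or above 10% mitochondrial reads were dropped. The methods also name a removal of genes found in fewer than 3 cells, but the deposited matrix holds *Ptprc* at 0 in every cell. The authors deposited natural log values of 1 plus reads per 10000 for 842 cells. Their methods name log2, whereas sums of 10000 came out in every cell with the natural log. Values above 0 were whole reads in 100% of cases, with a tolerance of 0.01 reads. Strand and multi-mapping settings are not given in the sources used here, and no exon of the 9 genes overlapped another gene in GENCODE release M21. Reads, not molecules, were counted.

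Groups were set by the *Cldn11* and *Igfbp5* values alone: 151 *Cldn11* cells against 691 others, and 226 *Igfbp5* cells against 616 others, with 45 cells past both thresholds, 106 and 181 past 1 of them and 510 past neither. Cells were compared by the log2 ratio of mean reads per 10000 plus 0.1 among 9654 genes found in at least 10% of cells. A difference past 2-fold was called by its size, with no test, since the cells are 1 sample. Thinning (seed 20) left 791 cells. The genes, thresholds and lists were chosen with earlier results of these data known. All 9 genes were named, as were listed genes past 2-fold or among the 5 found in most cells, and the 3 genes most like each. The values of 1 listed gene are not reported here. No doublet caller was run. The ratio and the thinning were tested on simulated data. Python 3.11.15, NumPy 2.4.6, pandas 2.3.3, SciPy 1.17.1 and matplotlib 3.10.9 were used.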

Additional observations from a re-analysis of the deposited data

How the results depend on the processing

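The log2 ratio of *Plat* in *Cldn11* cells lay between 0.83 and 2.15 over 12 alternatives, past 2-fold in 11 of them, and that of *F8* in *Igfbp5* cells between −2.99 and −0.56, past 2-fold in 10. With averaged log values the count of the 9 genes 2-fold higher in *Cldn11* cells went from 1 to 0, and the count 2-fold lower in *Igfbp5* cells went from 1 to 0, as it did with a pseudocount of 1. The count 2-fold higher in *Igfbp5* cells went from 0 to 1 with summed reads (*Serpine2*, 1.05) and to 3 at a fold of 1.5. No ratio past 2-fold changed sign in these alternatives.

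Of all genes tested, 0.445% were past 2-fold in either direction in *Cldn11* cells. This share was 0.197% with *Cldn11* above 0, 5.70% with *Cldn11* above 2, 0.104% with a pseudocount of 1, 2.65% with 0.01, 0.994% with summed reads, 0.0207% with averaged log values, 0.836% without cells with blood endothelial, immune or platelet markers and 4.45% at a fold of 1.5. In *Igfbp5* cells the share was 1.41%, and 0.207% with a pseudocount of 1, 3.34% with 0.01, 0.166% with averaged log values, 0.779% with no filter on genes and 5.93% at a fold of 1.5. The cause of these changes was not tested. No paired analysis was possible because the cells are 1 sample with no replicate numbers, and no replicate or plate could be left out for the same reason.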

Other observations

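Within the *Cldn11* cells, 90 had at least 1 read of *Gja4*, the gene of connexin 37, and 61 had none. *Plat* had a mean of 6.30 ± 13.9 reads per 10000 in the first and 10.2 ± 18.1 in the second (SD over cells), and both were above the 2.698 of cells other than *Cldn11* cells. *Plaur* had means of 3.11 and 5.26, and *Thbd* of 5.40 and 4.03. The cells without *Gja4* were shallower, with a median of 249149 against 405921 reads, and had a higher median of the summed stress genes, 12.2 against 5.78. The part of either in the *Plat* and *Plaur* values was not tested.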
